A study of Mus musculus with 18 samples.

Results

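The 9 genes described here encode lysosomal enzymes that break down glycosaminoglycans, the long sugar chains of proteoglycans: Gusb, Idua, Ids, Sgsh, Naglu, Hgsnat, Arsb, Galns and Glb1. They were taken by gene symbol from a table of transcript abundance, and all 9 were found among its 38046 genes. RNA had been sequenced in 18 libraries from clonal mouse oligodendrocyte progenitor cell (OPC) lines, which were derived from primary neural stem cells. The 3 control clones (D7, D3 and E8) and the 3 clones null for the transcription factor Thap1 (3F, D6 and 7F) were each sampled at 3 stages, giving 6 groups of 3 libraries. OPCs (day 0) were kept in growth medium with PDGF-AA, and cells of both genotypes were then held for 2 days (DIV2) or 4 days (DIV4) in oligodendrocyte differentiation medium with T3 thyroid hormone at 40 μg/ml. Each line is 1 clone and each clone gave 1 library per stage, so the clones are the replicates. How the null clones were made, and the age, sex and strain of the source animals, are not given in the sources used here.

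Glycosaminoglycans are degraded in the lysosome from the end of the chain, 1 residue or sulfate group at a time, and each enzyme needs the product of the one before it. A shortage of a single enzyme therefore stalls the chain and leads to storage of the partly degraded sugar, as in the mucopolysaccharidoses. In the brain, heparan and chondroitin sulfate proteoglycans surround OPCs and are known to affect their growth and maturation. THAP1 is a zinc-finger protein that binds DNA at short sites with a GGCA core, and the series asks how its loss alters oligodendrocyte development. Ids removes sulfate and Idua removes iduronic acid from heparan and dermatan sulfate, and Gusb removes glucuronic acid from heparan, dermatan and chondroitin sulfate. Sgsh, Hgsnat and Naglu handle the glucosamine residues of heparan sulfate. Arsb and Galns remove sulfate from galactosamine residues, and Glb1 removes galactose from keratan sulfate and gangliosides.

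Values are TPM, a transcript abundance that allows for transcript length and sums to 1000000 in each library. Sequencing depth is unknown, because TPM does not keep it. The control OPC libraries were mostly filled by Gm26924, Gm15662 and mmu-mir-6236 (3 noncoding genes, chosen after their values were seen), which held 64.8% to 88.0% of their TPM, against 0.789% to 34.8% in null OPCs and 0.359% to 3.17% at DIV2 and DIV4. Protein-coding transcripts held 5.05% to 9.0% of TPM in control OPCs, 19.1% to 28.4% in null OPCs and 20.8% to 38.8% later. TPM was therefore divided by a median-of-ratios factor per library (0.125 to 0.316 in control OPCs, 0.720 to 1.35 in null OPCs and 0.952 to 2.00 later), and the levels below are rescaled in this way unless called deposited. The labelled cell type was checked with marker genes. Of 8 OPC markers 7 were in the table, and their summed level was 640.2 to 960.2 in control OPCs and 480.0 to 589.8 in null OPCs. At DIV2 the OPC sum was 307 to 503 in control and 224 to 304 in null, and at DIV4 374 to 504 and 293 to 309, without overlap. At DIV4 the group mean of Olig1 was 186 in control and 57.4 in null, and Pdgfra, Olig2, Sox10 and Ptprz1 were also lower in null. Gpr17 (72.0 in control and 107 in null) and Cspg4 (3.93 and 4.69) were higher in null there. The summed level of 10 oligodendrocyte markers was 123 to 790 in control OPCs and 343 to 522 in null OPCs. It was 3862 to 6945 in control and 3408 to 3914 in null at DIV2, and 2482 to 13459 and 2110 to 3153 at DIV4. The part of these differences in the enzyme values was not tested. Control clone D7 stood apart at DIV4, with an oligodendrocyte sum of 13459 against 2482 to 2747 in E8 and D3, and an astrocyte sum of 95 against 381 to 591. All 10 microglial markers were in the table, their sum stayed between 0.799 and 6.45, and C1qa and C1qb were listed at 0 in every group. At DIV4 that sum was 4.05 to 6.45 in null and 1.94 to 2.76 in control. As group means, P2ry12 then stood at 3.17 in null and 0.848 in control, and Cd68 at 1.52 and 0.898. The other microglial markers were lower in null or at 0 in both. Of 8 mesenchymal and vascular markers the sum was at most 4.81. Other lineages were not absent. The sum of 8 astrocyte markers was 60.7 to 164 in control OPCs and 98.5 to 118 in null OPCs. At DIV2 it was 115 to 282 and 262 to 280, and in null at DIV4 413 to 493. The sum of 8 neuronal markers was 89.8 to 158 in control OPCs and 83.5 to 96.6 in null OPCs. At DIV2 it was 106 to 131 and 67.5 to 95.5, without overlap, and at DIV4 95.6 to 134 and 74.8 to 103. The part of these lists in the enzyme values was not tested. In bulk samples, fewer cells of a type and less RNA per cell cannot be told apart.

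The promoters of 7 of the 9 genes are in the RefSeq table used here (GRCm38.p6, 250 bases before to 50 bases after the gene start). They are shown for Gusb, the gene that differed between genotypes at every stage, and for Naglu and Arsb. The rise of Arsb during differentiation was called in both genotypes and that of Naglu in null. The control rise of Naglu was not called, nor was its difference from the null rise. Each sequence is the 250 bases before the start, 5′ to 3′ on the gene's strand, with matches to TNNGGCA, the core of the site THAP1 is known to bind, in capitals on either strand.

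Gusb, chr5:130003050-130003299, minus strand: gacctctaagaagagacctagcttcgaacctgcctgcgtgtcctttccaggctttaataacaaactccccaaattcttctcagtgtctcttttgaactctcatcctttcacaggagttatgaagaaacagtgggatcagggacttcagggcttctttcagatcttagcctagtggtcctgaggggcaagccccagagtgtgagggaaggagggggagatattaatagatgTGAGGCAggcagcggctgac

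Naglu, chr11:101069844-101070093, plus strand: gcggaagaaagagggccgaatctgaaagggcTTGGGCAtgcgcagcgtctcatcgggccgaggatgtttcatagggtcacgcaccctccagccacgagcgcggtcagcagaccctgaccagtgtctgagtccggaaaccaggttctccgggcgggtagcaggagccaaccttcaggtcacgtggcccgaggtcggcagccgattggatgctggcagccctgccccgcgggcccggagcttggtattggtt

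Arsb, chr13:93771429-93771678, plus strand: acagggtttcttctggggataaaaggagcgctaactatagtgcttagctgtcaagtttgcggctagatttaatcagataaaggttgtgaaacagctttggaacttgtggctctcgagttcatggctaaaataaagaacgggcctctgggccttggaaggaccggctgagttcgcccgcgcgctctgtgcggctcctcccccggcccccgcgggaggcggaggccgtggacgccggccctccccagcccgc

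The TNNGGCA letters were present on either strand in 4 of the 7 full 300-base promoters (Gusb, Idua, Naglu and Glb1) and in 40.0% of the 32851 mouse promoters of that length, so the letters alone are common. Gusb held 2 matches close to its start, TGAGGCA from base -20 and TCAGGCA from base 2, counted from the start with no base 0. The match in Naglu lay at -219, that in Glb1 at -183 and that in Idua at -201, the last on the opposite strand. The E-box CACGTG, the inner part of the TCACGTGA site known for TFEB and its relatives, was found in Sgsh (-29), Naglu (-73) and Glb1 (-48), and in 7.2% of all promoters. No member promoter held the full TCACGTGA, which 1.0% of all promoters have. The letters CCATNTT, known for YY1, were found in Ids (-220) and in 16.1% of all promoters. These matches overlap only where CACGTG lies within TCACGTGA, and they describe letters, not bound sites.

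The targeted gene was read first. The protein-coding transcripts of Thap1 summed in OPCs to 4.06 ± 0.591 rescaled TPM (control) and 0.619 ± 0.149 (null), to 2.41 ± 0.448 and 0.556 ± 0.187 at DIV2, and to 2.99 ± 0.72 and 0.474 ± 0.282 at DIV4 (SD, n = 3). The genotypes did not overlap at any stage. Summed over all its transcripts, a retained-intron form included, Thap1 was not lower in null (limma log2 change 0.75 in OPCs, adjusted p = 0.0357; 0.69 at DIV2, adjusted p = 0.115; 0.20 at DIV4, adjusted p = 0.653).

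Gusb, which encodes beta-glucuronidase, was the only 1 of the 9 enzymes whose level differed between genotypes in the test across all genes, and it was lower in null at each stage. In OPCs it stood at 5.08 (D7), 4.56 (D3) and 4.14 (E8) rescaled TPM in control, and at 1.18, 0.265 and 0.441 in null 3F, D6 and 7F. At DIV2 the control clones had 5.09, 4.61 and 3.35 and the null clones 0.500, 0.175 and 0.415 rescaled TPM, in the same clone order. At DIV4 they had 7.14, 4.24 and 4.78, and 0.232, 0.268 and 0.552 rescaled TPM. Every control library lay above every null library, and the highest null value was that of 3F OPCs. The group means were lower in null by 7.29-fold in OPCs (4.59 ± 0.471 against 0.63 ± 0.488), 12-fold at DIV2 (4.35 ± 0.899 against 0.363 ± 0.169) and 15.4-fold at DIV4 (5.39 ± 1.54 against 0.350 ± 0.176; SD, n = 3 each).

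Fold changes on the log2(rescaled TPM + 1) scale are too small for genes at low levels. On that scale Gusb differed by -1.82 in OPCs (SE 0.22, limma adjusted p = 0.000239), by -1.97 at DIV2 (SE 0.22, adjusted p = 0.000124) and by -2.22 at DIV4 (SE 0.22, adjusted p = 4.05e-05). Counting each clone once, by the mean of its 3 stages, the difference was -2.0 (SE 0.16, limma adjusted p = 0.00305), with all 3 null clones below all 3 control clones. The deposited TPM called 3 of the 9 on the clone means (Gusb, Naglu and Hgsnat), beside 23.7% of all tested genes. Of the 9 enzymes 1 was therefore called at each stage, where 11.5% of the 12894 tested genes were called in OPCs, 2.78% at DIV2, 4.86% at DIV4 and 3.22% on the clone means. Without control D7 the Gusb differences were -1.75, -1.86 and -2.04 (limma adjusted p = 0.00102, 0.00134 and 0.000704). On the deposited TPM the OPC difference was -0.34 (SE 0.32, limma adjusted p = 0.317), and those at DIV2 and DIV4 were -2.35 (adjusted p = 0.000308) and -2.64 (adjusted p = 9.68e-05). The deposited Gusb levels in OPCs were 1.48 (D7), 1.44 (D3) and 0.517 (E8) TPM in control and 1.6, 0.191 and 0.447 in null 3F, D6 and 7F, so on that scale the genotypes overlapped.

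**Figure D1:**
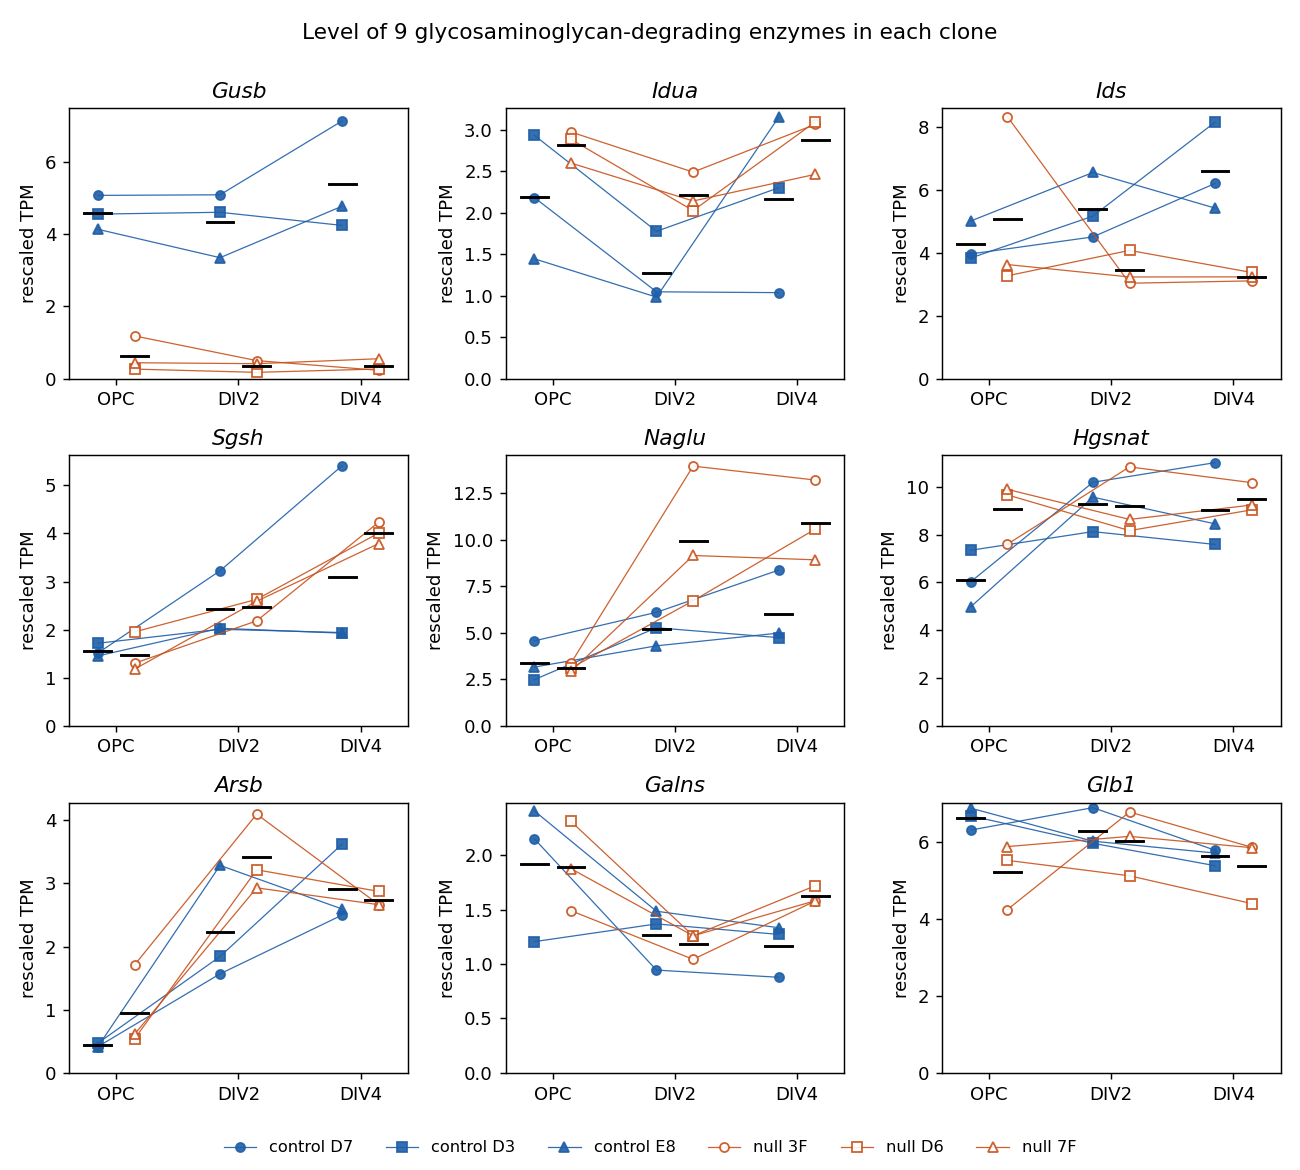
Rescaled TPM of each enzyme (y axis, linear from 0) at the 3 stages (x axis), with filled blue symbols for the control clones, open orange symbols for the null clones, thin lines joining the libraries of a clone and black bars for group means (n = 3). The null clones lie below the control clones for Gusb at every stage, between 0.175 and 1.18 against 3.35 and 7.14.

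Gusb (ENSMUSG00000025534) lies on chromosome 5, 129989011 to 130003049, minus strand (GRCm38), and the table holds 3 protein-coding and 2 retained-intron transcripts of it. The coding transcripts carried the difference. The full-length transcript of 12 exons (ENSMUST00000026613) had in OPCs 3.08 ± 1.12 rescaled TPM (control) and 0.137 ± 0.045 (null), then 3.21 ± 0.58 and 0.138 ± 0.124 at DIV2, and 3.63 ± 1.04 and 0.126 ± 0.0516 at DIV4 (SD, n = 3). Over the coding transcripts together the null mean was 14.2-fold lower in OPCs, 21.6-fold at DIV2 and 30.5-fold at DIV4, and null libraries reached at most 0.577 rescaled TPM against at least 2.76 in control. The retained-intron transcripts made up 3.12% ± 1.76, 9.13% ± 8.56 and 8.42% ± 5.74 of Gusb in control OPCs, at DIV2 and at DIV4, and 48.2% ± 9.6, 54.7% ± 19.2 and 51.9% ± 24.7 in null (SD, n = 3). In single null libraries the retained-intron share ran from 37.5% to 56.0% in OPCs, from 34.5% to 72.8% at DIV2 and from 26.0% to 75.1% at DIV4. These are shares of a small total. The 2 retained-intron transcripts themselves had lower means in null at DIV2 (0.101 against 0.184 and 0.0773 against 0.164 rescaled TPM). The same held at DIV4 (0.0499 against 0.230 and 0.138 against 0.197). In OPCs 1 was lower in null (0.107 against 0.139) and 1 higher (0.211 against 0.0093). Of the 31-base words of Gusb, 0.479% occur in another gene.

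**Figure D2:**
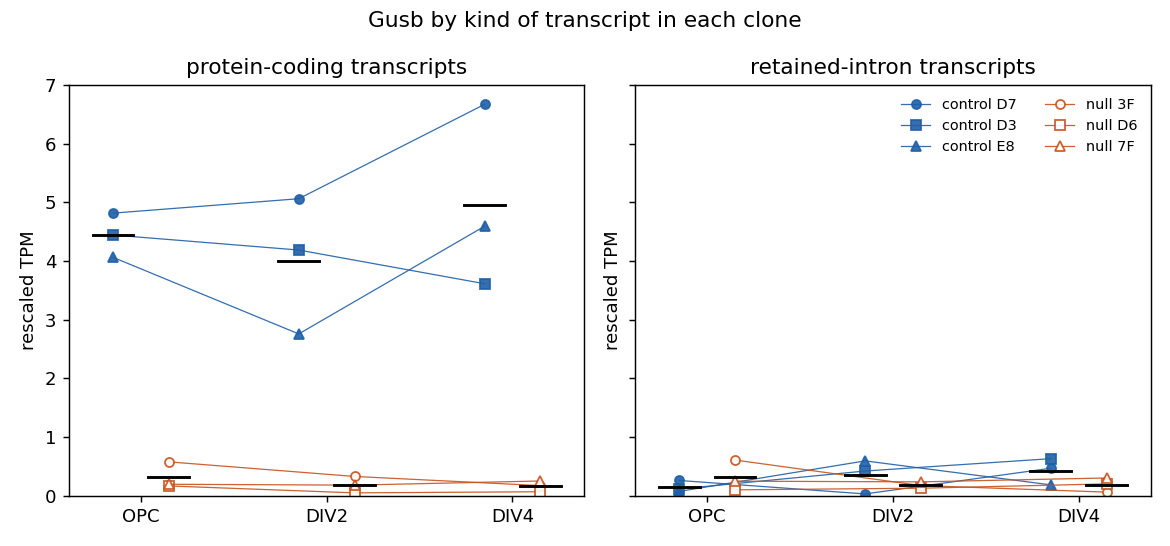
Rescaled TPM of Gusb (y axis) at the 3 stages (x axis), for its protein-coding transcripts (left) and its retained-intron transcripts (right), by clone, with black bars for group means (n = 3). Coding transcripts are 2.76 to 6.67 in control and 0.0477 to 0.577 in null, while the retained-intron transcripts are low in both genotypes.

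The tested genes beside Gusb were not called between genotypes. Vkorc1l1, 2319 bases away, differed between genotypes by 0.30, 0.15 and 0.27 in OPCs, at DIV2 and at DIV4 (SE 0.15, limma adjusted p = 0.209, 0.726 and 0.342). Asl, 8209 bases away on the other side, differed by -0.40, 0.14 and -0.35 (SE 0.31, limma adjusted p = 0.424, 0.898 and 0.576). Among the 8184 tested genes whose mean reached 5 TPM, those whose level followed Gusb most closely over the 18 libraries were Rpl34-ps1 (Pearson r 0.973), Gm6166 (0.971), Tmem223 (0.968), Rpl29 (0.967) and Gm8730 (0.957). These correlations are a description over libraries that share clones and genotype. Tmem223 stood at 21.5, 32.7 and 33.5 rescaled TPM in control OPCs, at DIV2 and at DIV4, and at 1.52, 1.5 and 0.677 in null. Rpl29 encodes a ribosomal protein and Rpl34-ps1 is by its name a pseudogene of another, while Gm6166 and Gm8730 are predicted gene models. Ribosomal protein genes have near-identical copies between which reads can be split, so these values are uncertain. For the other enzymes, r with Gusb over the same libraries was 0.599 for Ids, 0.389 for Glb1 and between -0.534 and -0.126 for the other six.

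The place of Gusb among the 9 enzymes does not depend on the scaling, because a share of their summed TPM is the same on both scales. In OPCs Gusb made up 14.7% ± 0.968 of the sum (control) and 2.03% ± 1.46 (null), then 11.5% ± 2.25 and 0.925% ± 0.347 at DIV2, and 12.7% ± 1.99 and 0.882% ± 0.491 at DIV4 (exact permutation p = 0.1 at each stage; SD, n = 3). That is the smallest p that 3 against 3 clones allow, and the genotypes did not overlap at any stage. In all, 27 such shares were compared (9 genes at 3 stages), and 11 of them did not overlap between genotypes and reached this p (0.245 after Benjamini-Hochberg adjustment over the 27, exact permutation tests). They were those of Gusb at each stage, Naglu at DIV2 and DIV4, Hgsnat in OPCs and at DIV4, Ids and Galns at DIV4, Idua at DIV2 and Arsb in OPCs. The shares of a library make up a whole, so a lower Gusb share by itself raises the other shares in null. The 11 are therefore not separate results. Naglu took 13.8% ± 2.10 of the sum in control and 25.4% ± 5.49 in null at DIV2, and 14.1% ± 2.80 and 26.7% ± 3.32 at DIV4 (SD, n = 3, exact permutation p = 0.1 for both). In OPCs its share was 10.9% ± 3.13 and 10.4% ± 0.247 (SD, n = 3, exact permutation p = 0.7). In OPCs Hgsnat took 19.6% ± 3.52 of the sum in control clones and 30.1% ± 5.71 in null clones (exact permutation p = 0.1; SD, n = 3). At DIV4 its share was 21.4% ± 1.81 in control and 23.4% ± 0.645 in null (SD, n = 3), while the rescaled level of Hgsnat overlapped between genotypes at that stage. The share of Ids at DIV4 was 15.9% ± 4.26 in control and 8.03% ± 0.851 in null, the one besides that of Gusb to be lower in null without overlap (SD, n = 3). Idua at DIV2 had 3.39% ± 1.32 and 5.82% ± 0.264, Galns at DIV4 2.85% ± 0.899 and 4.03% ± 0.406, and Arsb in OPCs 1.40% ± 0.109 and 3.08% ± 1.93 (control, then null; SD, n = 3). The summed level of the 9 enzymes overlapped between genotypes at each stage. OPCs had 31.1 ± 1.16 rescaled TPM (control) and 30.2 ± 1.71 (null), followed by 37.8 ± 1.72 and 38.3 ± 5.96 at DIV2 and by 42.0 ± 5.53 and 40.6 ± 3.11 at DIV4 (SD, n = 3).

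**Figure D3:**
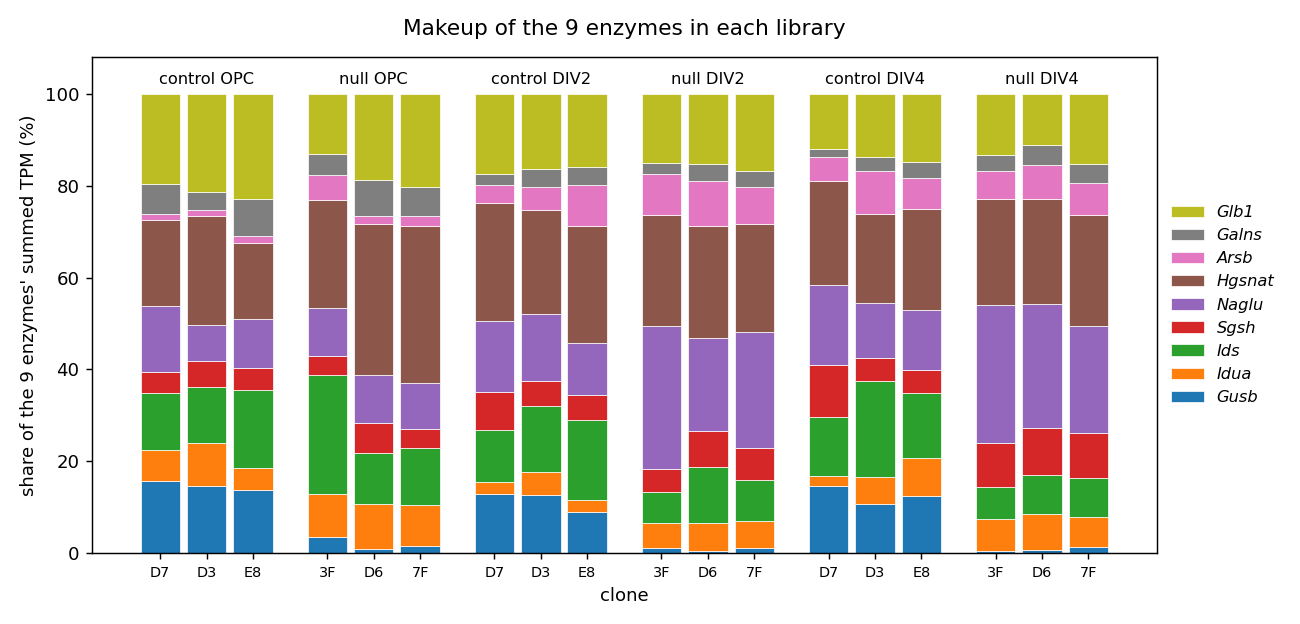
Share of the 9 enzymes' summed TPM (y axis, %) taken by each enzyme in each of the 18 libraries (x axis, clones within groups), a quantity that rescaling does not alter. The Gusb segment at the base is 14.7%, 11.5% and 12.7% on average in control OPCs, at DIV2 and at DIV4 and 2.03%, 0.925% and 0.882% in null, and the Naglu segment is wider in null at DIV2 and DIV4.

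Ids and Idua act on the iduronic acid residues of heparan and dermatan sulfate. Ids, iduronate 2-sulfatase, lies on chromosome X, 70343069 to 70365084. In OPCs it stood at 3.97 (D7), 3.84 (D3) and 5.01 (E8) rescaled TPM in control and at 8.33, 3.27 and 3.63 in null 3F, D6 and 7F, where 3F alone lay above the controls. At DIV2 the clones had 4.51, 5.17 and 6.56 in control and 3.03, 4.08 and 3.23 in null. At DIV4 they had 6.21, 8.16 and 5.42 in control and 3.11, 3.38 and 3.24 in null. Control and null ranges were separate at both later stages, and the null mean was 63.8% and 49.1% of the control mean, yet Ids was not called. Its difference was 0.12 in OPCs (95% interval -0.40 to 0.64, limma adjusted p = 0.795), -0.52 at DIV2 (-1.04 to -0.00, adjusted p = 0.341) and -0.83 at DIV4 (-1.34 to -0.31, adjusted p = 0.0651). The DIV4 difference passed the threshold under quantile normalization (-0.84, limma adjusted p = 0.0389) and when the 12 DIV2 and DIV4 libraries were rescaled and tested alone, an alternative chosen after seeing the data (-0.87, adjusted p = 0.0172). It was -1.02 on the deposited TPM (limma adjusted p = 0.239).

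Idua, alpha-L-iduronidase, lies on chromosome 5, 108660331 to 108684557, plus strand. It had 2.18 (D7), 2.93 (D3) and 1.44 (E8) rescaled TPM in control OPCs and 2.97, 2.88 and 2.60 in null 3F, D6 and 7F. At DIV2 the values were 1.05, 1.78 and 0.983 in control and 2.49, 2.03 and 2.14 in null, without overlap. At DIV4 they were 1.04, 2.30 and 3.15, and 3.06, 3.09 and 2.46, with overlap. The differences of 0.29, 0.52 and 0.35 did not pass the test (95% intervals -0.22 to 0.79, 0.01 to 1.02 and -0.16 to 0.85; limma adjusted p = 0.457, 0.326 and 0.446). Between 40.1% and 53.5% of Idua TPM, as group means, fell on noncoding transcripts. Dgkq and Slc26a1 overlap Idua on the opposite strand, and the strand setting of the quantification is not given in the sources used here, so reads of these genes may not have been kept apart.

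Sgsh, Hgsnat and Naglu serve heparan sulfate. Naglu, alpha-N-acetylglucosaminidase (chromosome 11, 101070012 to 101077672, plus strand), rose during differentiation in both genotypes as group means, and was called in null only. In OPCs it had 4.57 (D7), 2.48 (D3) and 3.16 (E8) rescaled TPM in control and 3.37, 3.10 and 2.92 in null 3F, D6 and 7F, with overlap. At DIV2 the control clones had 6.10, 5.27 and 4.30 and the null clones 14.0, 6.73 and 9.16. At DIV4 they had 8.38, 4.74 and 4.99, and 13.2, 10.6 and 8.93. Every null library then lay above every control library, at 1.90 times the control mean at DIV2 and 1.81 times at DIV4. The genotype difference was not called: 0.77 at DIV2 (95% interval 0.24 to 1.31, limma adjusted p = 0.136) and 0.78 at DIV4 (0.24 to 1.32, adjusted p = 0.0892), with -0.07 in OPCs (-0.60 to 0.47, adjusted p = 0.902). At DIV4 it passed the threshold without clone D7 (1.01, limma adjusted p = 0.0252), over coding transcripts alone (0.89, adjusted p = 0.0469) and with protein-coding TPM brought to a common sum (1.11, adjusted p = 0.0414). The microglial marker sum was also higher in null at DIV4, through P2ry12 and Cd68. As group means, Aif1, Cx3cr1, Csf1r, Itgam and Ptprc were lower in null there, and Tmem119, C1qa and C1qb were at 0 in both genotypes. The part of this sum in the Naglu values was not tested.

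Hgsnat, the acetyltransferase that prepares glucosamine for Naglu, lies on chromosome 8, 25944453 to 25976753, 181.4 kb from Thap1. It had 6.03 (D7), 7.35 (D3) and 4.98 (E8) rescaled TPM in control OPCs and 7.60, 9.66 and 9.89 in null 3F, D6 and 7F, without overlap. From DIV2 on the genotypes overlapped, with 8.13 to 10.2 in control and 8.17 to 10.8 in null at DIV2, and 7.59 to 11 and 9.03 to 10.2 at DIV4. The OPC difference of 0.50 was close to the threshold (95% interval 0.16 to 0.85, limma adjusted p = 0.0573) and passed it without clone D3 (0.62, adjusted p = 0.0224), with protein-coding TPM brought to a common sum (0.96, adjusted p = 0.00649), among genes with a mean of 5 TPM or more (0.50, adjusted p = 0.049) and on the deposited TPM (2.02, adjusted p = 3.75e-05). The differences at DIV2 and DIV4 were -0.02 (-0.36 to 0.33, limma adjusted p = 0.987) and 0.08 (-0.27 to 0.42, adjusted p = 0.841).

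Sgsh, N-sulfoglucosamine sulfohydrolase (chromosome 11, 119343425 to 119355536, minus strand), had 1.51 (D7), 1.72 (D3) and 1.45 (E8) rescaled TPM in control OPCs and 1.30, 1.95 and 1.18 in null 3F, D6 and 7F. At DIV2 it had 3.22, 2.01 and 2.03, and 2.18, 2.63 and 2.59. At DIV4 the control clone D7, with 5.41, lay above all others, D3 and E8 had 1.94 and 1.93, and the null clones had 4.24, 4.01 and 3.79. The genotypes overlapped at each stage, with differences of -0.06, 0.04 and 0.40 (95% intervals -0.59 to 0.48, -0.50 to 0.57 and -0.14 to 0.93; limma adjusted p = 0.912, 0.976 and 0.409). Without D7 the DIV4 difference was 0.77 and passed the threshold (limma adjusted p = 0.0104), so this result turns on that 1 clone. The part of the high oligodendrocyte sum of D7 in it was not tested.

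Arsb and Galns take sulfate from chondroitin, dermatan and keratan sulfate. Arsb (chromosome 13, 93771630 to 93943016, plus strand) was the lowest of the 9 in control OPCs, at 0.415, 0.471 and 0.416 rescaled TPM in D7, D3 and E8, with 1.71, 0.538 and 0.613 in null 3F, D6 and 7F. As deposited, the control OPC values were only 0.121, 0.149 and 0.052 TPM. Depth is unknown, so the precision of these values and of changes from them could not be stated. In OPCs the null clones all lay above the control clones, 3F far above the rest. At DIV2 Arsb had 1.57, 1.84 and 3.29, and 4.10, 3.22 and 2.93, and at DIV4 2.50, 3.62 and 2.59, and 2.66, 2.87 and 2.66. Its genotype differences were 0.40 in OPCs (95% interval -0.09 to 0.89, limma adjusted p = 0.276), 0.48 at DIV2 (-0.01 to 0.97, adjusted p = 0.358) and -0.05 at DIV4 (-0.54 to 0.43, adjusted p = 0.937). Without 3F the OPC difference was 0.14 (limma adjusted p = 0.777).

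Galns (chromosome 8, 122578242 to 122611463, minus strand) stood at 1.21 to 2.41 rescaled TPM in control and 1.49 to 2.31 in null OPCs, and at 0.945 to 1.49 and 1.04 to 1.26 at DIV2. At DIV4 the null clones, at 1.58 to 1.72, lay above the control clones, at 0.879 to 1.33. The differences of 0.00, -0.04 and 0.29 did not pass the test (95% intervals -0.39 to 0.40, -0.44 to 0.35 and -0.11 to 0.68; limma adjusted p = 1, 0.956 and 0.416). Gm20388, a long gene model, overlaps Galns on the opposite strand.

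Glb1, beta-galactosidase (chromosome 9, 114401076 to 114474898, plus strand), had group means between 5.21 and 6.61. It stood at 6.30 (D7), 6.67 (D3) and 6.87 (E8) rescaled TPM in control OPCs and 4.24, 5.51 and 5.87 in null 3F, D6 and 7F, without overlap. Later it lay between 5.37 and 6.88 in control and between 4.39 and 6.77 in null. The differences were -0.30 (95% interval -0.59 to -0.02, limma adjusted p = 0.152), -0.06 (-0.34 to 0.22, adjusted p = 0.898) and -0.07 (-0.35 to 0.22, adjusted p = 0.839). Of its 31-base words 5.13% also occur elsewhere, chiefly in Tmppe, which overlaps it on the same strand.

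Over the 9 enzymes, the genotypes did not overlap for 4 at each stage: Gusb, Hgsnat, Arsb and Glb1 in OPCs, Gusb, Idua, Ids and Naglu at DIV2, and Gusb, Ids, Naglu and Galns at DIV4. Among all tested genes such separation was seen for 24.8% (OPC), 30.4% (DIV2) and 26.5% (DIV4). The median difference of the 9 was 0.00, -0.02 and 0.08 at the 3 stages, beside 0.04, 0.00 and -0.02 over all tested genes. The scale decided the OPC comparison. On the deposited TPM 8 of the 9 were called higher in null OPCs, with Gusb alone not called, and 81% of all tested genes were called there, with a median difference of 1.21 for the 9 and 1.5 for all genes. The deposited differences of the 8 ran from 0.82 for Arsb and Sgsh to 2.02 for Hgsnat (limma adjusted p = 0.0408, 0.00287 and 3.75e-05). At DIV2 and DIV4 the deposited TPM called Gusb alone of the 9, beside 1.57% and 2.78% of all tested genes.

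**Figure D4:**
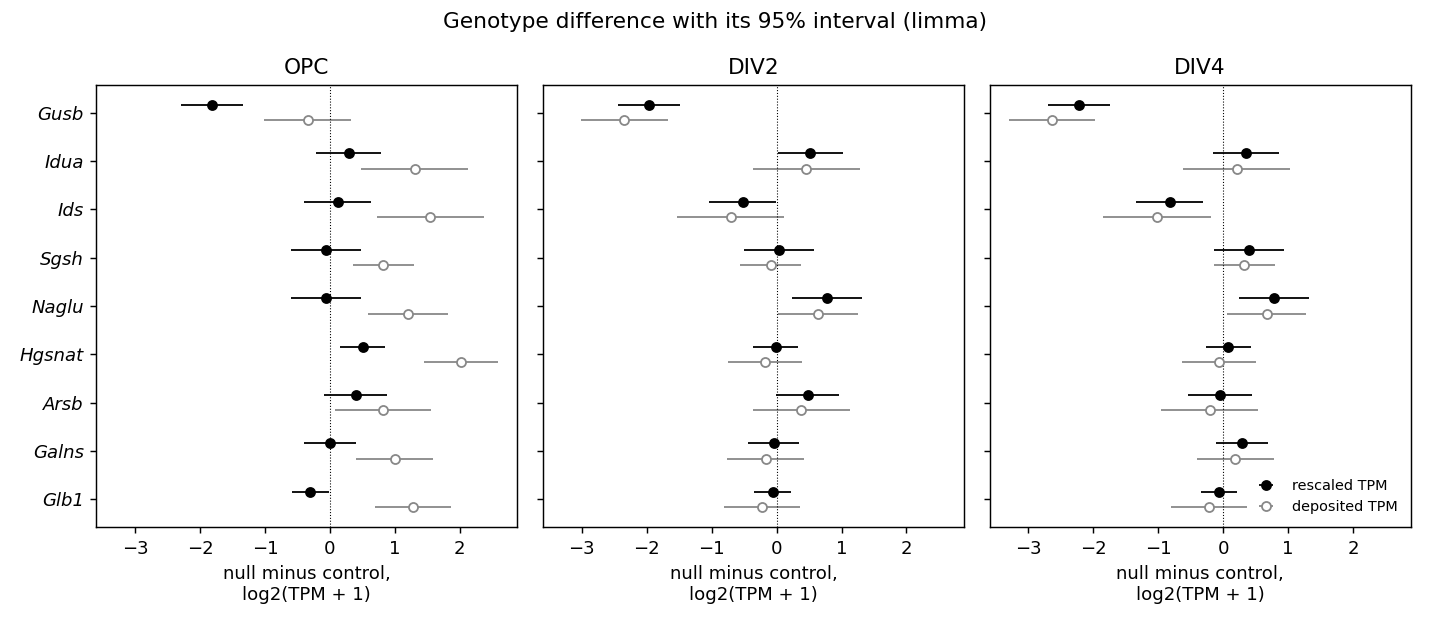
Null minus control difference of each enzyme on the log2(TPM + 1) scale (x axis) with its 95% interval from limma, at the 3 stages, for rescaled (filled) and deposited (open) TPM. The scales part in OPCs, where the deposited values of the 8 enzymes other than Gusb lie between 0.82 and 2.02, and come together at DIV2 and DIV4.

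Control OPCs ranked the enzymes from Glb1 (6.61 ± 0.289) and Hgsnat (6.12 ± 1.19) through Gusb (4.59 ± 0.471), Ids (4.27 ± 0.646) and Naglu (3.40 ± 1.06) to Idua (2.19 ± 0.744), Galns (1.92 ± 0.633), Sgsh (1.56 ± 0.138) and Arsb (0.434 ± 0.0317), as rescaled TPM (SD, n = 3). Each neighbouring pair in this order overlapped in range, except Sgsh and Arsb. In null OPCs Hgsnat (9.05 ± 1.26) led and Gusb (0.63 ± 0.488) was last, below Arsb (0.953 ± 0.656). At DIV4 the control order began with Hgsnat (9.02 ± 1.78), Ids (6.60 ± 1.41), Naglu (6.03 ± 2.03), Glb1 (5.62 ± 0.214) and Gusb (5.39 ± 1.54), where each overlapped in range with its neighbour in the order. In null at DIV4, Naglu (10.9 ± 2.17) and Hgsnat (9.48 ± 0.609) stood above Glb1 (5.36 ± 0.841), and Gusb (0.350 ± 0.176) was again last (SD, n = 3 each).

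Differentiation moved a few of the enzymes upward, and none downward, in the test across all genes. Arsb rose in both genotypes, from OPC to DIV2 by 1.14 in control (SE 0.23, limma adjusted p = 0.0019) and 1.22 in null (SE 0.23, adjusted p = 0.00146), and from OPC to DIV4 by 1.43 (adjusted p = 0.000503) and 0.98 (adjusted p = 0.00432). Naglu rose in null by 1.35 at DIV2 (SE 0.25, limma adjusted p = 0.00135) and 1.51 at DIV4 (SE 0.25, adjusted p = 0.000432), while its differences in control were 0.52 (95% interval -0.02 to 1.05, adjusted p = 0.128) and 0.67 (0.13 to 1.20, adjusted p = 0.0567). The control values passed the threshold with the clone as a replicate block (limma adjusted p = 0.0345 and 0.0128). In all, 4 of 16 alternatives called the control rise of Naglu at DIV2 and 6 of 16 at DIV4. Hgsnat rose in control by 0.54 at DIV2 (SE 0.16, limma adjusted p = 0.0187) and 0.49 at DIV4 (SE 0.16, adjusted p = 0.0319). In null it stood at 0.02 (95% interval -0.32 to 0.37, limma adjusted p = 0.945) and 0.07 (-0.28 to 0.41, adjusted p = 0.788), from a higher OPC level. Sgsh rose in null at DIV4 by 1.03 (SE 0.25, limma adjusted p = 0.00574). Its control difference was 0.57 (95% interval 0.04 to 1.11, limma adjusted p = 0.0951).

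Of the 9 enzymes, 2 were called from OPC to DIV2 and 2 from OPC to DIV4 in control, beside 33.7% and 31.2% of all tested genes. In null 2 and 3 were called, beside 26.9% and 32.5%. These shares of the 9 are near or below the background. All 9 were called higher on the deposited TPM in control at DIV2 and at DIV4, beside 83.6% and 88.1% of all tested genes. On the rescaled TPM Gusb was not called across stages in either genotype: -0.07 and 0.17 in control at DIV2 and DIV4 (95% intervals -0.55 to 0.41 and -0.31 to 0.65; limma adjusted p = 0.836 and 0.597), and -0.22 and -0.24 in null (-0.70 to 0.25 and -0.72 to 0.24; adjusted p = 0.506 and 0.451). Its deposited changes in control were 1.85 and 2.13 (limma adjusted p = 4.27e-05 and 1.04e-05). From DIV2 to DIV4 none of the 9 was called in control or in null by limma, beside 0.233% and 2.03% of all tested genes. At an unadjusted p under 0.05 there were 0 of the 9 in either genotype, beside 10.4% and 16.5% of all tested genes. The Hgsnat calls rested on single clones: without D7 the limma adjusted p was 0.0849 at DIV2 and 0.209 at DIV4, and without E8 0.179 and 0.16. At DIV4 they were also lost without the null clone D6 or 7F (limma adjusted p = 0.0581 and 0.0699). The Sgsh call was lost without 3F or 7F (limma adjusted p = 0.0728 and 0.0743), and the Arsb call in null at DIV4 without D6 or 7F (0.0834 and 0.0699). Leaving out a clone also added calls: Galns was lower in control at DIV2 and DIV4 without D3 (-0.58 and -0.65, limma adjusted p = 0.0383 and 0.024), Ids and Naglu higher in control at DIV4 without 3F (adjusted p = 0.0437 and 0.0497), and Sgsh higher in null without D7 at DIV2 (0.50, adjusted p = 0.0152) and from DIV2 to DIV4 (0.53, adjusted p = 0.0399).

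**Figure D5:**
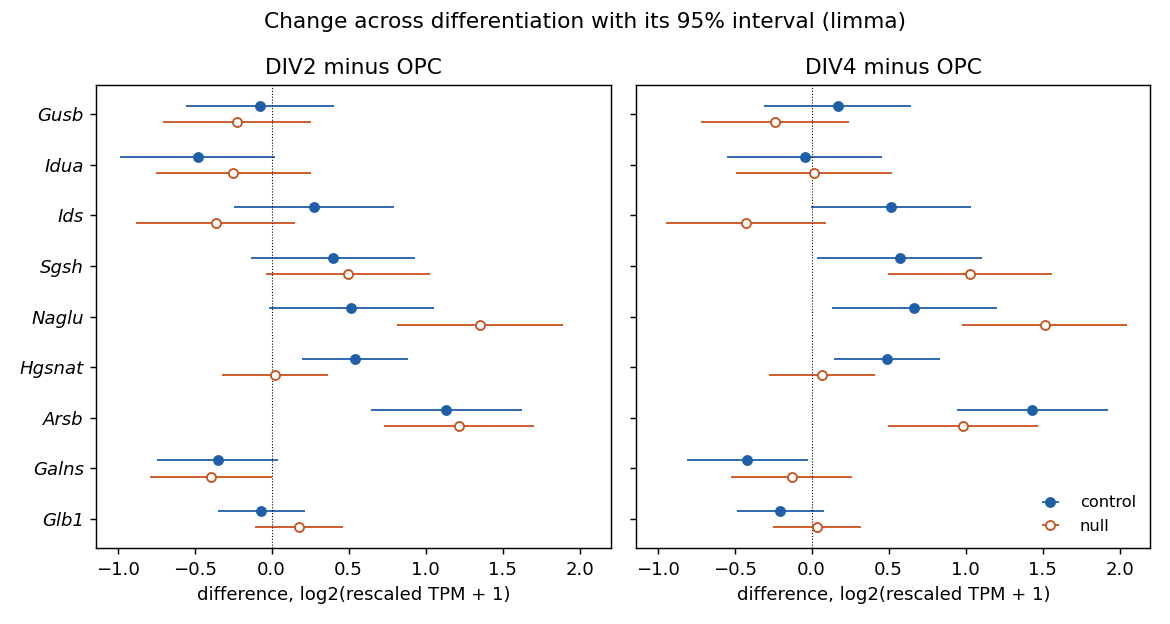
Change of each enzyme from OPC to DIV2 (left) and to DIV4 (right) on the log2(rescaled TPM + 1) scale (x axis) with its 95% interval from limma, for control (filled) and null (open) clones. Arsb lies above 0 in both genotypes (0.98 to 1.43), Naglu in null at 1.35 and 1.51, and Gusb near 0 in both.

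Whether differentiation moved an enzyme differently in the genotypes was tested as an interaction (the change in null minus that in control). None of the 9 was called, beside 0.349% of all tested genes at DIV2 and 2.68% at DIV4, both against OPC, and 0.0233% from DIV2 to DIV4. The values farthest from 0 were those of Naglu, 0.84 at DIV2 (95% interval 0.08 to 1.6, unadjusted p = 0.0328, limma adjusted p = 0.317) and 0.85 at DIV4 (0.09 to 1.61, unadjusted p = 0.0311, adjusted p = 0.203), and that of Ids at DIV4, -0.94 (-1.68 to -0.21, unadjusted p = 0.0152, adjusted p = 0.144). Hgsnat stood at -0.52 at DIV2 (-1.01 to -0.03, unadjusted p = 0.0387, limma adjusted p = 0.338). For Gusb the interaction was -0.15 at DIV2 (-0.83 to 0.53, limma adjusted p = 0.89) and -0.41 at DIV4 (-1.09 to 0.27, adjusted p = 0.509). At an unadjusted p under 0.05 there were thus 2 of the 9 at DIV2, 2 at DIV4 and none from DIV2 to DIV4, beside 13.6%, 19.6% and 5.53% of all tested genes. The deposited TPM called 6 of the 9 at DIV2 and 4 at DIV4, beside 72.6% and 73.5%.

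Other enzymes of glycosaminoglycan breakdown were read from a list of 13 symbols, of which 11 were in the table and 6 reached a mean of 1 TPM (Hexa, Hyal2, Arsk, Tmem2, Sulf1 and Sulf2). By limma none of the 6 was called between genotypes at any stage on the rescaled TPM, and their median differences were -0.16, -0.11 and -0.14. At an unadjusted p under 0.05 there were 1, 2 and 3 of the 6 in OPCs, at DIV2 and at DIV4, beside 27.8%, 14.5% and 20.5% of all tested genes. In null OPCs 4 were called higher on the deposited TPM, beside 81% of all tested genes called. Sulf2, an extracellular enzyme that trims sulfate from heparan sulfate, was the most abundant of the 6, followed by Hexa. Sulf2 differed by -0.48, -0.29 and 0.25 (95% intervals -0.97 to 0.01, -0.79 to 0.20 and -0.24 to 0.74; limma adjusted p = 0.191, 0.618 and 0.588). Hexa, the alpha subunit of beta-hexosaminidase, stood in OPCs at 1.47 (D7), 17.8 (D3) and 7.64 (E8) rescaled TPM in control and at 20.2, 27.2 and 26.7 in null 3F, D6 and 7F. At DIV2 it had 2.29, 12.4 and 15.2, and 67.8, 48.4 and 52.3, and at DIV4 2.88, 19.9 and 24.5, and 43.2, 52.9 and 41.9. The genotypes did not overlap, and control D7 was the lowest library at each stage. Its differences of 1.79, 2.66 and 1.87 were not called (95% intervals 0.17 to 3.41, 1.05 to 4.28 and 0.26 to 3.49; limma adjusted p = 0.139, 0.0839 and 0.175).

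Across stages, 1 of the 6 rose and 1 fell at DIV2 in control, and 1 rose and 1 fell at DIV4. In null 1 rose at DIV2, and 1 rose and 1 fell at DIV4. Of all tested genes 33.7% and 31.2% were called at DIV2 and DIV4 in control, and 26.9% and 32.5% in null, in either direction. Sulf2 rose in null by 0.78 and 0.90 at DIV2 and DIV4 (limma adjusted p = 0.0214 and 0.00801), with 0.59 and 0.17 in control (adjusted p = 0.0602 and 0.616). Hyal2, a hyaluronidase, fell by 0.50 at DIV2 and by 0.85 at DIV4 in control (limma adjusted p = 0.0251 and 0.00128) and by 0.65 at DIV4 in null (adjusted p = 0.00529). Its deposited control values were 1.80 and 1.47, called in the opposite direction (limma adjusted p = 0.000201 and 0.00112), and the null value was -0.24 (adjusted p = 0.668). The deposited control values of Sulf2 were also called, at 3.21 and 2.81 (limma adjusted p = 8.75e-07 and 3.11e-06). Tmem2, a cell-surface hyaluronidase, rose at DIV2 in control by 2.49 (limma adjusted p = 0.0186), where D7 had 39.5 rescaled TPM and the other two 9.24 and 11.8. Sulf1, a relative of Sulf2, rose at DIV4 in control by 1.65 (limma adjusted p = 0.0478), with 0.0944 rescaled TPM in D7, 4.07 in D3 and 10.7 in E8.

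Of 11 genes that mature, partner or deliver lysosomal enzymes, all 11 were tested and 1 was called between genotypes, at DIV2, where 2.78% of all tested genes were called. Nagpa, which uncovers the mannose 6-phosphate tag, had 3.40 (D7), 2.42 (D3) and 3.47 (E8) rescaled TPM in control at DIV2 and 6.26, 4.60 and 4.96 in null 3F, D6 and 7F. Its difference was 0.62 (SE 0.16, limma adjusted p = 0.0495), and on the deposited TPM it was 0.51 and not called (adjusted p = 0.564). In OPCs and at DIV4 it was -0.06 (adjusted p = 0.845) and 0.38 (adjusted p = 0.184). Scarb2, the receptor that carries glucocerebrosidase, rose by 2.00 and 1.86 in control at DIV2 and DIV4 (limma adjusted p = 0.000378 and 0.000768) and by 2.34 and 2.39 in null (adjusted p = 0.000173 and 8.66e-05). Ctsa, which protects Glb1 and Neu1 in a shared complex, rose by 1.12 and 1.33 in control and by 1.6 and 1.47 in null (limma adjusted p between 0.000329 and 0.00287). In all, 3 of the 11 rose at DIV2 and 6 at DIV4 in control, 5 and 4 in null, and none fell, beside 33.7%, 31.2%, 26.9% and 32.5% of all tested genes called in either direction. All 11 were called higher at both stages in control on the deposited TPM, beside 83.6% and 88.1% of all tested genes called. In null 5 and 6 were called higher on that scale, beside 2297 and 2912 of the 12894 tested genes called in either direction.

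Among 6 regulators of lysosomal genes, 5 were tested, and by limma none was called between genotypes at DIV2 or DIV4. At an unadjusted p under 0.05 there were 0 and 2 of the 5, beside 14.5% and 20.5% of all tested genes. In OPCs 2 of the 5 were called lower in null, beside 11.5% of all tested genes called. Tfe3, a relative of Tfeb, was lower in null OPCs by -0.46 (SE 0.12, limma adjusted p = 0.0269), with 3.73 (D7), 3.50 (D3) and 4.72 (E8) rescaled TPM in control and 2.80, 2.66 and 2.35 in null 3F, D6 and 7F. Yy1, a zinc-finger regulator, differed there by -0.96 (SE 0.27, limma adjusted p = 0.0324), with 12.4, 16.3 and 19.9, and 5.90, 11.3 and 6.81. On the deposited TPM both were called higher in null OPCs, beside 81% of all tested genes called, so their direction turns with the scale. Zkscan3, a repressor of lysosomal genes, differed by -0.07, -0.26 and -0.41 (limma adjusted p = 0.847, 0.551 and 0.214). Tfeb, a master regulator of lysosomal genes, rose by 2.52 and 2.19 in control at DIV2 and DIV4 (limma adjusted p = 6.59e-05 and 0.000231) and by 2.59 and 2.39 in null (adjusted p = 6.89e-05 and 7.08e-05). Its genotype differences of -0.58, -0.51 and -0.37 were not called (limma adjusted p = 0.238, 0.483 and 0.543). Mitf rose by 1.58 and 1.14 in control and by 1.77 and 1.66 in null (limma adjusted p between 3.74e-05 and 0.000864).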

How the data were processed

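RNA sequencing measured expression in 6 clonal lines at 3 stages (18 libraries). Per the labels' protocols, total RNA was made into libraries with a stranded kit that removes ribosomal RNA. The authors deposited TPM per Ensembl transcript, and STAR, Picard and mm10 are named in the submitters' processing notes. The quantifier, annotation and strand setting are not given in the sources used here. Transcript TPM was summed by symbol (38046 genes). TPM was divided by median-of-ratios factors from 11432 genes, which assume that most genes do not change. The 12894 genes whose mean reached 1 TPM were tested with limma 3.58.1 (R 4.3.3) on log2(rescaled TPM + 1), with 1 mean per group over all libraries, eBayes with a trend and Benjamini-Hochberg adjustment over all tested genes, and were called at an adjusted p under 0.05. The fit was tested on simulated data. Shares used two-sided exact permutation tests, in which no p can fall below 0.1. Where nothing says the clones came from separate animals, p-values measure the spread between these clones. Biotypes and positions came from GENCODE M21 (GRCm38), which held 96.5% of the transcript identifiers, and promoters from RefSeq. The named genes were all 9 members, Thap1, the list genes called at DIV2 or DIV4 (in a list without any, the most abundant pair), the neighbours of called members and the 5 genes most like Gusb. Tfe3, Yy1, Mitf and the list genes named across stages were chosen after their values were seen. The members and lists were chosen with earlier results of these data known. Some genes of the list of other enzymes are not reported here.

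Clones pair the stages within a genotype, because the labels give the same clonal line at each stage. Deviations from group means correlated at 0.119 on average between stages of 1 clone (18 pairs over both genotypes, -0.0136 to 0.412). Between clones of a genotype the average was -0.0593. Deviations cancel out within a group, so that value largely follows from the first and is no separate comparison. Alternatives were the deposited TPM, other scalings, coding transcripts only, another pseudocount, other filters, eBayes without the trend, the clone as a block, the compared groups alone and each clone left out in turn.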

Additional observations from a re-analysis of the deposited data

How the results depend on the processing

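Over the 13 member results that were called, 185 of 199 alternatives kept the call, 14 lost it and none reversed. Of the 104 uncalled results, 1568 of 1635 alternatives stayed uncalled, 52 became called and 15 reversed. Gusb kept its genotype call at each stage under each alternative that tested it, except on the deposited TPM in OPCs. A filter of 5 TPM removes Gusb, so 0 members were then called at DIV2, at DIV4 and on the clone means.

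Counts of called members moved as follows. On the deposited TPM they were 8 (genotype, OPC), 9 (control, OPC to DIV2), 9 (control, OPC to DIV4), 6 (interaction, DIV2), 4 (interaction, DIV4) and 3 (clone means), beside 81%, 83.6%, 88.1%, 72.6%, 73.5% and 23.7% of all tested genes. With protein-coding TPM at a common sum they were 2 (OPC), 2 (DIV4), 6 and 6 (control stages), and with coding transcripts only 2 (DIV4), 4 and 4. The shares of all tested genes called under these and the later alternatives are not given here. Those counts can therefore not be set against a background. At DIV4 quantile normalization and the 12 later libraries alone gave 2 each. For control from OPC to DIV2, a filter of 5 TPM and the compared groups alone gave 1 each. From OPC to DIV4, these and no filter gave 1 each. In null the 5 TPM filter gave 1 at DIV2 and 1 at DIV4, and the compared groups alone gave 1 from DIV2 to DIV4. Leaving out 1 clone gave 1 to 2 (OPC), 1 to 3 (DIV4), 1 to 3 and 1 to 4 (control, OPC to DIV2 and to DIV4), 1 to 3 (null, OPC to DIV4) and 0 to 1 (null, DIV2 to DIV4).

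Reversals came with another scaling, and their cause was not tested. On the deposited TPM they were Sgsh 0.82, Naglu 1.21 and Glb1 1.28 between genotypes in OPCs, Gusb 1.85, Idua 0.91, Galns 1.03 and Glb1 2.06 in control from OPC to DIV2, and Idua 1.48, Galns 1.01 and Glb1 1.95 from OPC to DIV4. The interactions that reversed were Sgsh -0.92 and Glb1 -1.50 at DIV2 and Glb1 -1.50 at DIV4. With a common protein-coding sum Glb1 was 0.59 and 0.48 in control. With the clone as a replicate block, 3 members were called in control at DIV2 and 3 at DIV4, Naglu being the one added, and the block changed no other call. TPM keeps no depth, so the precision at low levels, such as Gusb in null, could not be stated.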
